A study of Mus musculus with 26 samples.

Results

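Genes that set the epithelium of the mouse small intestine apart from 3 other lineages were described across 26 libraries of 3' RNA-seq. A gene counted as higher in the intestine when its lowest value in the 6 intestinal libraries, taken at 3 stages, exceeded its highest value in the 20 other libraries. Of 25146 genes with a value in every library, 1264 met this rule, 211 met its mirror (highest intestinal value below the lowest value elsewhere), and 13 of those 211 were absent only in the intestine, with under 1 RPM in all 6 intestinal libraries and 1 RPM or more in all 20 others. Since measured values chose these genes, their separation is given as a description and with no test.

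The study compared cell lineages that pass through a state with the transcriptional repressor BLIMP1, the product of Prdm1. The intestinal cells came from the gut between the caudal part of the duodenum and the ileocecal junction of C57BL/6 mice that carry EGFP fused to BLIMP1 on both alleles, and were sorted in the embryo (E16.5) as GFP+ EPCAM+ cells and at postnatal days 3 and 14 (P3, P14) as EPCAM+ cells. The protocols add that the latter were negative for BLIMP1, which the sorting labels do not give. The same homozygous knock-in mice gave 10 retinal libraries of photoreceptor precursors (P0 GFP+, P4 GFP+CD73-, and CD73+ at P4, P6 and P10) and 8 libraries of the B lineage. The latter were B220+ splenic B cells of mice aged 8 to 10 weeks, and Blast (GFP- CD138-), prePB (GFP+ CD138-) and PB (GFP+ CD138+) cells sorted from B cells after 3 days with IL-4 (2 ng/mL) and LPS (10 ng/mL). The 2 remaining libraries were primordial germ cell-like cells at day 2 of induction (d2 PGCLC), sorted by the Blimp1-mVenus reporter from a C57BL/6 and 129 line that also carries stella-ECFP and Rosa26-rtTA, and induced with BMP4 and BMP8A (500 ng/mL each), EGF (50 ng/mL), SCF (100 ng/mL) and 1000 U/mL of LIF. Each of the 13 groups had 2 replicates, and no label says whether these were separate animals or cultures. P-values therefore measure the spread between these samples, which may be technical. Tissue, sorting gate and dissociation differed together between the intestinal and the other libraries and cannot be told apart.

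The small intestine is lined by a single layer of polarised cells. Absorptive enterocytes carry a brush border of microvilli on which digestive enzymes and transporters sit, tight and adherens junctions seal and hold the sheet, and goblet, Paneth and enteroendocrine cells secrete mucus, antimicrobial peptides and hormones. A network of transcription factors that includes HNF4A, CDX and GATA proteins is known to maintain this cell identity. In bulk libraries such as these, fewer cells of a type and less RNA per cell cannot be told apart.

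Depth, read from the value of a single read in each library, was 1716491 to 6040033 reads over all libraries and 2230256 to 6040033 in the intestine, so that 3 reads were worth 0.497 to 1.35 RPM there. Values near 1 RPM rest on a few reads. The label was checked with markers given for this cell type. Lgals4, a galectin of the gut epithelium, had 4378 and 4201 RPM at E16.5, 3258 and 3352 at P3 and 3795 and 4112 at P14, against 0.583 and 0.371 RPM in d2 PGCLC, 3.62 to 16.1 (median 10.4) in retina and 0.600 to 17.8 (median 3.26) in the B lineage. Epcam had 717 to 1087 RPM in the intestine and its highest value elsewhere in d2 PGCLC, but was used for the sort and is no finding. Among 10 genes used by every cell, such as Actb and Tbp, none was higher or lower in every intestinal library, and their summed level was 21138 to 24717 RPM in the intestine, 21894 to 22322 in d2 PGCLC, 11187 to 20073 in retina and 24203 to 36598 in the B lineage.

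The 1264 genes made up 5.03% of the genes examined and summed to 173849 to 222709 RPM in the intestinal libraries, against 36477 and 36538 RPM in d2 PGCLC, 25632 to 31059.8 RPM in retina and 20109.5 to 28869 RPM in the B lineage. As a share of the RPM on the lines used, this was 17.9 to 23.0% in the intestine, 3.78% in both d2 PGCLC libraries, 2.64 to 3.19% in retina and 2.51 to 3.15% in the B lineage. The lines used summed to as little as 688942 and 650799 RPM in the PB libraries, so the shares there have a smaller base. The lowest intestinal value had a median of 28.2 RPM over these genes and the highest value elsewhere a median of 5.30 RPM. The distance between both, called the margin (the log2 of the lowest intestinal RPM + 1 minus the log2 of the highest other RPM + 1), was at least 1 for 632 of them. In 354 genes no other library reached 1 RPM, and 73 were listed at 0 in all 20 others. Protein-coding genes made up 1224 of the 1264, and long non-coding RNAs 26.

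**Figure D1:**
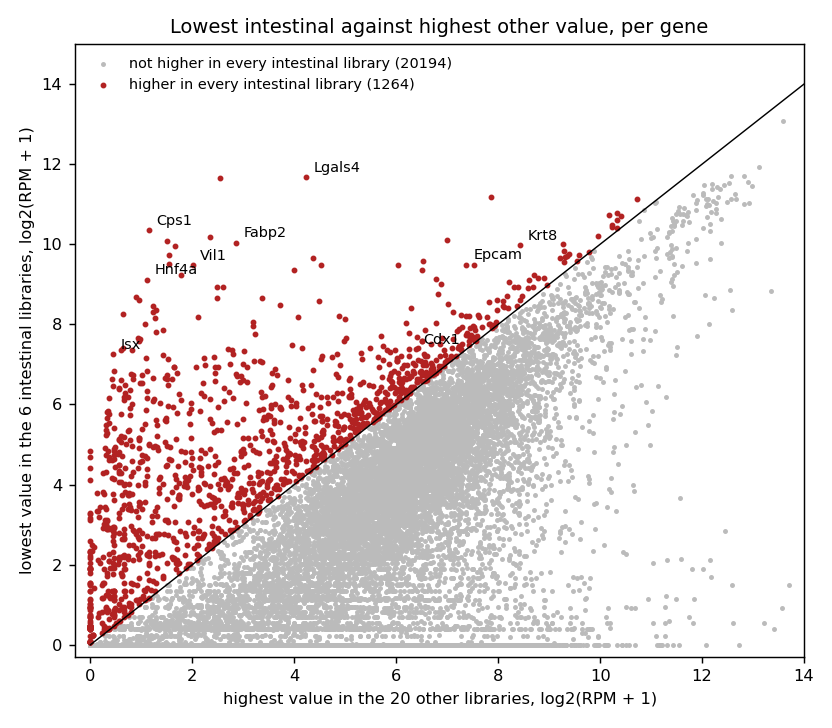
Each point is a gene: the x axis gives its highest value in the 20 other libraries and the y axis its lowest value in the 6 intestinal libraries, both as log2(RPM + 1), with the line of equal values. The 1264 red points lie above the line, and a small group near the left edge, among them Cps1, Hnf4a and Isx, combines high intestinal values with values near 0 elsewhere.

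A limma fit of all 13 groups was used to describe gene lists. It uses the same libraries as the rule, and the lists were drawn up with earlier results of these data known, so its counts for the lists are descriptions and not independent tests. It compared each of the 3 stages with the mean of each of the 3 other lineages, and called a gene when the largest of the 9 p-values, adjusted by Benjamini-Hochberg, was under 0.05 and all 9 log2 fold changes were at least 1 in one direction. Of 14131 genes that reached 5 RPM in 2 or more libraries, 984 (6.96%) were called higher and 199 (1.41%) lower in the intestine. The count of lower calls was 94 with a pseudocount of 5 and 70 when each stage was compared with each of the 10 other groups. The difference between the intestinal groups and the others had a median of -0.26 on the log2 scale over all tested genes, and of -0.11 after median-of-ratios scaling, and differences below are to be read against that shift. Among the 1264 genes 1195 passed the filter on low values, and 892 of the 984 called genes were among them.

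The 24 genes with the largest margin were led by enzymes and surface proteins of enterocytes. Cps1, the carbamoyl-phosphate synthetase that feeds citrulline and urea synthesis (Entrez ID 227231; chromosome 1, 67122426 to 67231267, GRCm38.p6), had 1504 and 1340.3 RPM at E16.5, 2559 and 2603 at P3 and 1918 and 1299.7 at P14. All 20 other libraries held at most 1.20 RPM of it, and the fitted difference from the other lineages was 10.38 ± 0.16 on the log2(RPM + 1) scale (SE of the fit). The second, listed as 2210415F13Rik and named Lypd8 in RefSeq, encodes a glycoprotein of the gut surface and had 3198 to 6952 RPM against at most 4.82 elsewhere. The groups did not overlap for any of the 24, by construction.

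Further surface and secreted products in this group were the galectin Lgals2 (1082 to 2479 RPM), the scavenger receptor Dmbt1 (999 to 2087), the transmembrane mucin Muc13 (855 to 1479.5), the tetraspanin Tspan8 (389.7 to 763), the membrane protein Tm4sf20 (305 to 592) and the acidic secreted protein Prap1 (286 to 1114). None of these 6 exceeded 2.17 RPM outside the intestine. Enzymes of metabolism included the fructose bisphosphatase Fbp2 (258 to 671 RPM), the esterases Ces2e (317 to 389.7) and Aadac (329 to 729.9), the sulfotransferase Sult1b1 (162 to 521) and the maltase-glucoamylase Mgam (169.9 to 413). The highest value of these elsewhere was 1.45 RPM, for Aadac in B_cell replicate 2. Lipid carriers were Apoa4, an apolipoprotein of chylomicrons, with 4894 and 4976 RPM at E16.5, 5338 and 4865 at P3 and 1167 and 1360.1 at P14, and Fabp2, the intestinal fatty acid-binding protein, with 6595 and 6588 RPM at E16.5, 3513 and 3140.2 at P3 and 1048 and 1202 at P14. Both varied several-fold among the 6 intestinal libraries, yet their lowest values were far above the 4.09 and 6.26 RPM reached elsewhere. The calcium-binding S100g (353 to 649 RPM), the annexin Anxa13 (406 to 596), the actin bundler Vil1 (713 to 1125) and the inflammasome sensor Nlrp6 (201 to 244) were also in the set, with Lgals4 and the nuclear factors Hnf4a and Isx. In the annotation Vil1 overlaps Usp37, S100g overlaps Ctps2 and Lgals2 overlaps Cdc42ep1, so reads of these pairs may not be told apart. Summed over the 24, the intestinal libraries held 24866 to 35139 RPM and the others 2.62 to 49.1 RPM.

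**Figure D2:**
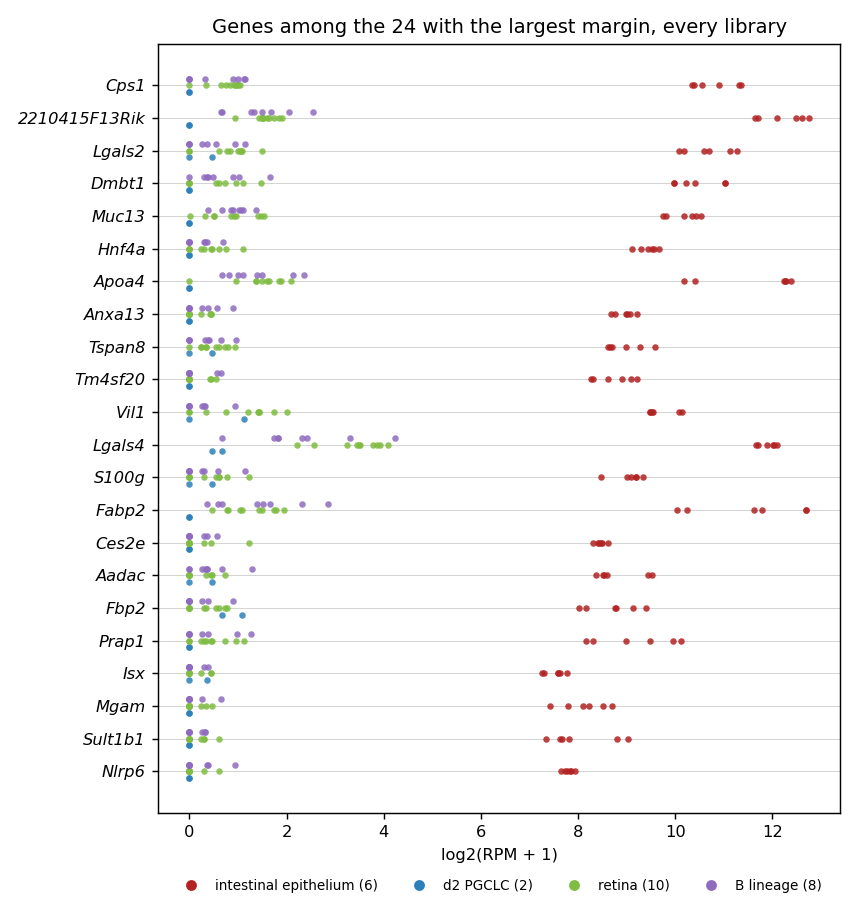
Genes among the 24 with the largest margin are ordered from top to bottom by margin, and each point is a library placed by its log2(RPM + 1). The 6 red points of the intestine lie to the right for every gene drawn, and of the other lineages Lgals4 reaches farthest, with 17.8 RPM in B_cell replicate 2.

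Transcription factors of the intestinal and epithelial list were mostly higher: 23 of 36 were higher in every intestinal library and none lower, and limma called 23 of the 35 tested higher (65.7%, against 6.96% of all genes). The median log2 difference of the list was 4.26, against -0.26 over all tested genes. Hnf4a, a nuclear receptor of liver and gut (Entrez ID 15378; chromosome 2, 163506811 to 163572907, GRCm38.p6), had 554 and 631 RPM at E16.5, 738 and 752 at P3 and 693 and 807 at P14. It was listed at 0 in both d2 PGCLC libraries and reached at most 1.16 RPM in the others, a fitted difference of 9.23 ± 0.17 on the log2(RPM + 1) scale (SE of the fit). Its relative Hnf4g had 108 to 202 RPM. Isx, the intestine-specific homeobox gene, had 191 and 197 RPM at E16.5, 217 and 192 at P3 and 152 and 157 at P14 against at most 0.366 RPM elsewhere, so all 6 values stayed within a narrow range. Creb3l3, a membrane-bound activator of lipid genes (162 to 417 RPM), the bile acid receptor Nr1h4 (72.2 to 276) and the xenobiotic receptor Nr1i2 (34.6 to 60.1) stayed under 1 RPM in all 20 other libraries.

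GATA and CDX genes were divided by their level in d2 PGCLC. Gata4 had 109 to 193 RPM in the intestine and 9.90 and 10.8 RPM in d2 PGCLC, and Gata6 had 121 to 244 against 6.99 and 7.41 RPM. Cdx1 had 171 and 166 RPM at E16.5, 280.2 and 265 at P3 and 205 and 302 at P14, with 82.7 and 64.5 RPM in d2 PGCLC and at most 0.366 RPM in the remaining 18 libraries. Its partner Cdx2 was not separated, at 25.9 to 46.0 RPM in the intestine and 30.9 and 30.8 RPM in d2 PGCLC. Sox9 (10.4 to 144 RPM in the intestine, 3.38 to 90.4 in retina) and Prdm1 itself were likewise in neither set. Prdm1 had 93.5 and 107 RPM at E16.5, 46.2 and 71.3 at P3 and 21.4 and 16.9 at P14, so that the P3 cells, BLIMP1-negative by the protocols, were below the GFP+ cells of E16.5 but not without its RNA, against 2.31 to 502 RPM elsewhere. The vitamin D receptor Vdr was called by limma without separation from every other library, with 13.0 to 266 RPM in the intestine and up to 30.6 RPM elsewhere.

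Promoter sequence is shown for 3 of the higher genes, chosen because motifs of HNF4 and CDX proteins lie in them. The searched letters were AAAGTCC (a part of the HNF4 motif) and TTTATNG (CDX), on both strands, in windows of 300 bases (250 before and 50 after a start) from RefSeq on GRCm38. Capitals mark the match, each line reads 5′ to 3′ on the gene's strand, and all matches shown lie before the start.
Lgals2, HNF4 part, chr15:78855576-78855632 (minus strand): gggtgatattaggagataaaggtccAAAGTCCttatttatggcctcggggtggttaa
Lgals2, CDX, chr15:78855566-78855622 (minus strand): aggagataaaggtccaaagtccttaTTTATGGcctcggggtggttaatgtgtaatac
Fabp2, CDX, chr3:122894982-122895038 (plus strand): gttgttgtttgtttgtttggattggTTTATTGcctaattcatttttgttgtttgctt
Fabp1, CDX, chr6:71199765-71199821 (plus strand): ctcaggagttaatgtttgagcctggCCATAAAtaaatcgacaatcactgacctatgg
In Lgals2 the HNF4 and CDX letters are neighbours, 78 and 68 bases before the start, and both lines overlap. In Fabp1, the liver-type fatty acid-binding protein (489 to 5224 RPM in the intestine, at most 5.06 elsewhere), the CDX letters shown lie on the opposite strand. Further CDX matches, not shown, lie 133 bases before its start on the same strand and 227 bases before it on the opposite strand. Of all 22101 windows of the table's genes, 4.20% held the part of the HNF4 motif and 9.63% the CDX letters. Windows were found for 979 of the 1264 genes (77.5%), too few for a comparison of the whole set, which is void and not given. A match is a description of these letters and not of binding.

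Of 22 genes of microvilli in the table, 16 were higher in every intestinal library, and limma called 15 of 21 tested (71.4%, median log2 difference 5.29). Vil1, villin, the actin bundler of the microvillus core (Entrez ID 22349; chromosome 1, 74409384 to 74435560, GRCm38.p6), had 1125 and 1080.0 RPM at E16.5, 713 and 730.0 at P3 and 739.6 and 713 at P14, against at most 3.04 RPM elsewhere. The protocadherins Cdhr2 (106 to 206 RPM) and Cdhr5 (142 to 387 RPM), which link the tips of neighbouring microvilli, and their motor Myo7b (88.4 to 154 RPM) were at or below 1.13 RPM in all others. Clrn3, a small membrane protein, had 70.3 to 209 RPM. Ezr, which ties actin to the membrane, had 197 to 447 RPM in the intestine and up to 378 RPM in the B lineage, so that the groups overlapped. Cobl (2.69 to 17.1 RPM) and Espn (1.99 to 9.57 RPM) also overlapped with retina.

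Of 33 genes of adhesion and junctions, 22 were higher in every intestinal library and 19 of 32 tested were called higher (59.4%, median log2 difference 4.07). Cldn2, a claudin that forms cation pores, had 98.9 and 140.5 RPM at E16.5, 158 and 155 at P3 and 217 and 119 at P14 and at most 0.336 RPM elsewhere. Cdh17, the liver-intestine cadherin, had 160.1 to 319 RPM against at most 7.08, and Cldn15 54.3 to 264 RPM against at most 2.81. The tight junction protein Ocln (78.3 to 119 RPM) had 5.24 and 5.56 RPM in d2 PGCLC, and the hemidesmosome integrin Itgb4 (29.6 to 47.3 RPM) at most 1.35 anywhere else. Cdh1, E-cadherin, had 71.8 to 136 RPM in the intestine, 10.5 and 13.7 RPM in d2 PGCLC and at most 1.20 RPM in retina and B lineage. Ceacam1 (15.4 to 75.4 RPM) overlapped with B cells at up to 55.3 RPM, and Pard6b (17.0 to 32.4 RPM) with retina. Ceacam1 was called against the mean of the B lineage (smallest log2 fold change 1.48), but in the comparison with each of the 10 other groups its smallest value was -1.36.

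Keratins, epithelial RNA-binding proteins and membrane serine proteases gave 11 of 16 genes higher in every intestinal library, and 10 of 16 called higher by limma (62.5%, median log2 difference 4.31). Krt7 had 142 to 381 RPM, Krt19 292 to 1035 and Krt20, a keratin of mature enterocytes, 59.6 to 259. The highest value elsewhere was 28.5 RPM for Krt19, in d2 PGCLC. Esrp2, a splicing regulator of epithelia, had at least 6.95 RPM in every intestinal library and at most 0.241 elsewhere. The protease Tmprss4 had 41.7 to 105 RPM and at most 0.387 elsewhere.

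Some of the epithelial genes were also found in d2 PGCLC. Among the 1191 higher genes with any value above 0 elsewhere, the highest other value lay in retina for 527 (44.2%), in the B lineage for 342 (28.7%) and in d2 PGCLC for 322 (27.0%), where retina gives 50.0%, the B lineage 40.0% and d2 PGCLC 10.0% of the other libraries. The same shares over all genes were not examined, and libraries of a group or lineage are not independent. These numbers therefore do not show that d2 PGCLC resembles the epithelium, and the counts that follow have the same limit. By list, d2 PGCLC held the highest other value for 12 of 22 junction genes, 7 of 11 of the keratin list, 5 of 6 of polarised membrane traffic and 9 of 23 transcription factors, but 2 of 23 genes of lipid uptake and 1 of 25 of detoxification and metabolism. In 20 genes both d2 PGCLC libraries had at least 10 RPM while the 18 retinal and B-lineage libraries stayed under 5 RPM. They included Cdx1, Klf5 (59.6 and 46.7 RPM in d2 PGCLC, 93.4 to 178 in the intestine), Krt19 and 4 further examples. The epithelial factor Elf3 had 33.2 and 31.9 RPM in d2 PGCLC and 82.3 to 241 in the intestine, and the desmosomal cadherin Dsc2 33.8 and 20.0 and 76.2 to 92.3, in that order. The ubiquitin ligase Rnf128 had 52.4 and 52.6 RPM in d2 PGCLC and 174 to 332 in the intestine, and Mogat2, an enzyme of triglyceride resynthesis, 51.3 and 47.1 and 86.0 to 367.

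Genes of lipid uptake and lipoprotein assembly were higher in every intestinal library for 23 of 29, and limma called 20 of 28 tested (71.4%, median log2 difference 5.47). Besides Apoa4 and Fabp2 these included Fabp1, with 4201 and 5224 RPM at E16.5, 1153 and 931 at P3 and 508 and 489 at P14, and Apoc3, an apolipoprotein, with 799 and 835 RPM at E16.5, 236 and 168 at P3 and 80.6 and 107 at P14. Both were more than 5-fold apart between their lowest and highest intestinal library, and still had no overlap with the 5.06 and 0.723 RPM reached elsewhere. A pair of receptors often placed with this pathway did not separate. Scarb1 had 3.97 to 25.8 RPM in the intestine against 4.92 to 194 elsewhere, and Cd36 1.22 to 26.2 against 0 to 276, with its highest value in PB.

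Digestive hydrolases were higher in every intestinal library in 13 of 16 genes, and limma called 13 of 14 tested (92.9%, median log2 difference 5.96). Mgam, which splits starch fragments, had 365 and 413 RPM at E16.5, 169.9 and 221 at P3 and 300.3 and 276 at P14, and Lct, lactase, 654 and 723 RPM at E16.5, 105 and 92.2 at P3 and 153 and 199 at P14. Alpi, the intestinal alkaline phosphatase, had 231 to 802 RPM and the metalloprotease Mep1a 98.0 to 319. These 4 stayed at or below 1.68 RPM elsewhere. The peptidases Dpp4 and Ace were called higher by limma without full separation: Dpp4 had 79.4 to 227 RPM in the intestine and up to 100.4 RPM in B_cell replicate 2 (smallest of the 9 log2 fold changes 1.42), and Ace 6.41 to 43.1 RPM and up to 7.69 RPM in retina (1.60). When each stage was compared with each of the 10 other groups, neither kept its call, and the smallest value of Dpp4 was -0.16.

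Of 39 genes of solute and ion transport, 25 were higher in every intestinal library, the same number as called by limma among 37 tested (67.6%, median log2 difference 4.06). Slc5a1, the sodium-glucose transporter of the brush border, had 227 and 243 RPM at E16.5, 107 and 121 at P3 and 68.7 and 85.9 at P14 and at most 0.583 RPM elsewhere. Slc7a9, a chain of the cystine transporter (96.4 to 344 RPM), Osta, a chain of the basolateral bile acid exporter now named Slc51a (77.1 to 506 RPM), the chloride exchanger Slc26a3 (63.4 to 123 RPM) and the chloride channel Cftr (36.2 to 112 RPM) stayed under 1 RPM in all 20 others. The ileal bile acid importer Slc10a2 (0 to 6.93 RPM) and the glutamate transporter Slc1a1 (0.309 to 26.2 RPM) were higher in some retinal libraries, at up to 20.7 and 100.4 RPM. Over the table, 52 of 370 genes named Slc with a number were higher in every intestinal library (14.1%) and 3 lower.

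Detoxification and intermediary metabolism gave 25 of 31 genes higher in every intestinal library and 23 of 27 called (85.2%, median log2 difference 5.59). Otc, ornithine transcarbamylase, which uses the product of Cps1, had 327 and 372 RPM at E16.5, 189.7 and 219 at P3 and 274 and 263 at P14 and at most 0.932 RPM elsewhere. Members of large enzyme families were frequent over the table as a whole. Higher in every intestinal library were 9 of 17 Ugt genes (glucuronosyltransferases), 11 of 21 Gst genes (glutathione transferases), 7 of 19 Ces genes (carboxylesterases), 7 of 13 Acot genes (acyl-CoA thioesterases) and 20 of 105 Cyp genes (cytochromes P450), against 5.03% of all genes. Further prefixes also lay above that share, such as Akr with 7 of 17, Cldn with 8 of 27 and Tmem with 22 of 216. Some lay near or below it, such as Krt with 7 of 106 (Krtcap3 among them), Zfp with 1 of 371 and Rpl with 0 of 53. The prefixes were chosen after the values were seen. Ugt2b34 had 196 to 597 RPM and Gsto1 651 to 983 RPM, against at most 0.963 and 89.4 elsewhere. Gsta4 was below both d2 PGCLC libraries (3.70 to 101 RPM in the intestine, 133 and 134 in d2 PGCLC), and Dak, a kinase of triose metabolism, was not called (2.75 to 13.5 RPM against 0 to 6.06). Near-identical copies in these families share reads, and the sources used here do not give how the authors divided such reads, so values of single members are uncertain.

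Some of the higher genes were neighbours on the chromosome. Among the 1258 with a position in RefSeq, 12 runs of at least 4 had no other gene with a value above 0 between their members. How many such runs a set of this size holds in general was not examined. The longest runs held 6 genes each: Ugt2b35, Ugt2b36, Ugt2b5, Ugt2b37, Ugt2a3 and Ugt2b38 on chromosome 5 (87000860 to 87424203, GRCm38.p6), Serpina1a to Serpina1f on chromosome 12 (103688044 to 103956897), which encode protease inhibitors of the antitrypsin group, and Naip2, Naip5, Naip6, Naip1, Ocln and Marveld2 on chromosome 13 (100144063 to 100616971). A run of 5 on chromosome 5 (134945123 to 135013157) held Cldn4, Cldn3, Wbscr25, Abhd11 and 2010001M06Rik. A run of 4 on chromosome 13 (73626911 to 73816754) began with Tert, the telomerase reverse transcriptase (12.7 to 27.8 RPM in the intestine, at most 6.47 elsewhere), and went on with the amino acid transporter Slc6a19, 5430425J12Rik and Slc12a7. Runs of copies with shared reads are not independent observations.

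Mucins, glycosylation enzymes and surface glycoproteins had 19 of 28 genes higher in every intestinal library, and limma called 19 of 26 tested (73.1%, median log2 difference 5.99). Muc13 had 1479.5 and 1373 RPM at E16.5, 1292 and 1164 at P3 and 855 and 902 at P14 and Tspan8 389.7 and 508 RPM at E16.5, 402 and 416 at P3 and 622 and 763 at P14. Secretory cell products were within the set although their level varied widely. Muc2, the gel-forming mucin of goblet cells, had 14.2 to 244 RPM and at most 2.71 elsewhere, Tff3, a trefoil peptide, 121 to 1782 RPM and the lectin Zg16 4.01 to 376 RPM. Lgals9 (156 to 1693 RPM) overlapped with the B lineage at up to 710.2 RPM, and Lgals3 (4.04 to 45.0 RPM) was below d2 PGCLC at 56.5 and 67.8 RPM.

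Receptors and ligands were higher in every intestinal library in 14 of 21 cases, with 14 of 20 called (70.0%, median log2 difference 3.62). Guca2a, guanylin, had 426 and 353 RPM at E16.5, 224 and 236 at P3 and 593 and 619.9 at P14 and its receptor Gucy2c, a guanylate cyclase, 340.5 and 357 RPM at E16.5, 277 and 295 at P3 and 272 and 267 at P14. The Hedgehog ligand Ihh had 57.1 to 104 RPM, the receptor for vasoactive intestinal peptide Vipr1 22.8 to 100.1 and the prolactin receptor Prlr 46.6 to 161. Their highest values elsewhere were 1.13, 0.963 and 5.39 RPM. The Wnt receptor Fzd5 (19.1 to 70.0 RPM) and the insulin receptor Insr (19.9 to 42.3 RPM) overlapped with retina.

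Of 12 genes of polarised membrane traffic, 6 were higher in every intestinal library and 5 of 9 tested were called (55.6%, median log2 difference 4.88). Rab25, a small GTPase of apical recycling, had 193 and 209 RPM at E16.5, 199 and 179 at P3 and 220.3 and 226 at P14, with 9.32 and 14.5 RPM in d2 PGCLC. Rab17 (64.1 to 166 RPM), Mal2 (77.3 to 181 RPM) and Exph5, an effector of vesicle transport (5.38 to 12.7 RPM), also had their highest other value in d2 PGCLC. Stx3, a syntaxin of apical fusion (48.4 to 206 RPM), was higher in retina, at up to 1217 RPM, and Rab11fip1 (6.28 to 11.1 RPM) overlapped with d2 PGCLC.

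**Figure D3:**
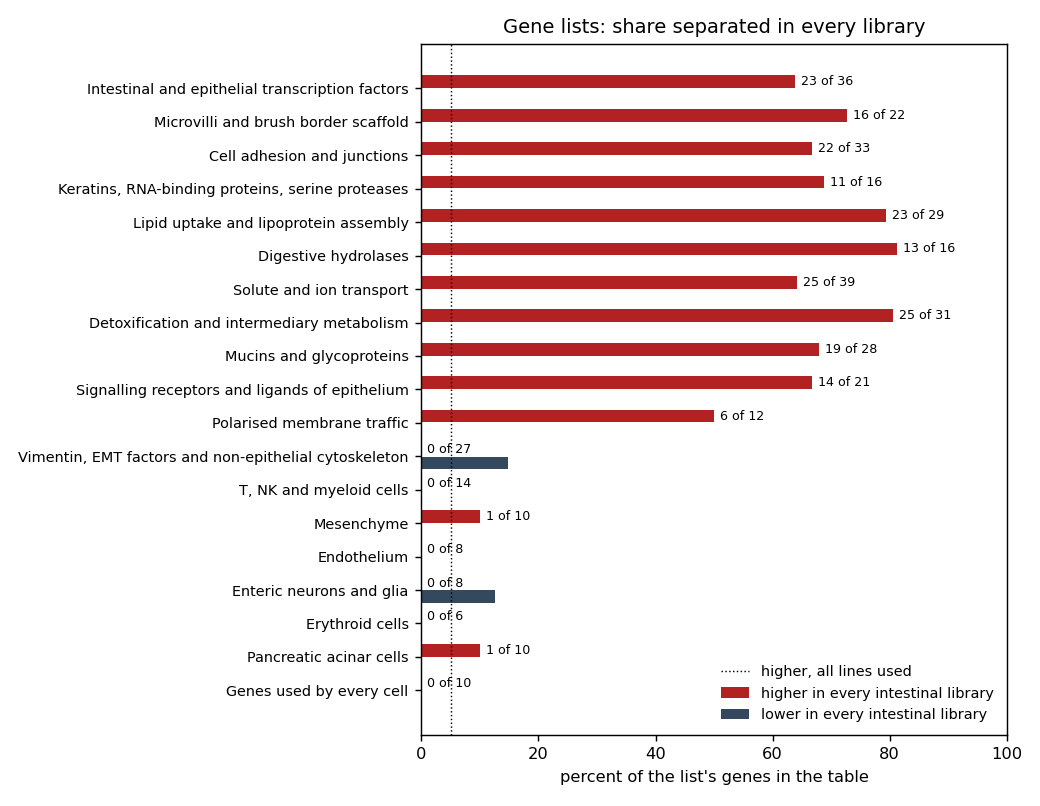
Bars give, for each of 19 gene lists, the percent of its genes in the table that were higher (red) or lower (dark) in every intestinal library, with the count for the higher genes; the dotted line marks the 5.03% over all genes. The 11 epithelial lists lie between 50.0 and 81.2%, and for higher genes the lists of other cell types and of genes used by every cell lie between 0 and 10.0%.

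Some gene families of innate defence, picked after the values were seen, held more members of the set than the 5.03% over all genes. All 4 Naip genes of the table, whose products recognise bacterial flagellin and needle proteins, were higher in every intestinal library, led by Naip6 with 229 and 258 RPM at E16.5, 118 and 154 at P3 and 119 and 129 at P14 and at most 11.2 RPM elsewhere. Nlrp6 had 227 and 231 RPM at E16.5, 211 and 201 at P3 and 244 and 217 at P14 and at most 0.916 RPM elsewhere. Among the Reg genes, which encode secreted lectins, 5 of 7 were higher in every intestinal library. Reg3b had 1009 and 178 RPM at E16.5, 62.3 and 53.3 at P3 and 232 and 166 at P14 and Reg4 32.3 and 49.7 RPM at E16.5, 264 and 232 at P3 and 228 and 456 at P14, so that replicates of the same stage differed up to several-fold for Reg3b. Of 13 Defa genes, which encode defensins of Paneth cells, 9 were higher, though copies share reads. Defa24 had 34.4 and 29.6 RPM at E16.5, 1486 and 1230.1 at P3 and 1511 and 2204 at P14 and Defa17 16.4 and 15.1 RPM at E16.5, 437 and 324 at P3 and 981 and 1244 at P14, above the 1.93 and 0.701 RPM seen elsewhere even where they were low.

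How even the higher genes were across the 6 intestinal libraries was summarised by the ratio of the highest to the lowest RPM + 1. This ratio was under 2 for 493 of 1264 genes (39.0%), at least 10 for 97, and had a median of 2.32. Among genes with at least 100 RPM in every intestinal library, the 20 most even had ratios of 1.09 to 1.24. Most of these were genes with a high level elsewhere as well, such as Akr1a1, an aldehyde reductase (909 to 1043 RPM in the intestine, up to 622 elsewhere), the superoxide dismutase Sod1 (1391 to 1671, up to 1205), thioredoxin Txn1 (2225 to 2695, up to 1695) and Gpx1, a glutathione peroxidase (812 to 992, up to 589). Ces2e, Nlrp6 and 2210404O07Rik were as even, with at most 1.35, 0.916 and 22.0 RPM in the 20 others.

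Genes lower in every intestinal library were fewer, 211 of 25146 (0.839%), and only 39 had a margin of at least 1. Their highest intestinal value had a median of 6.73 RPM and their lowest value elsewhere one of 12.2 RPM. The lowest other value lay in the B lineage for 130, in retina for 42 and in d2 PGCLC for 39. Of the other libraries, 40.0% were of the B lineage, 50.0% of retina and 10.0% of d2 PGCLC. The same division over all genes was not examined. Of the 130, 65 had it in PB, whose libraries had the lowest median-of-ratios scaling factors (0.564 and 0.554). The part of scaling in this division was not tested. Quantile normalization gave 435 genes lower in every intestinal library, and leaving out the B lineage 2203. The largest margin was that of Myo5a, a myosin that carries vesicles along actin (Entrez ID 17918; chromosome 9, 75069799 to 75223688, GRCm38.p6), with 0.385 and 1.56 RPM at E16.5, 0.448 and 1.35 at P3 and 1.83 and 0.497 at P14 in the intestine, against 28.5 and 26.1 RPM in d2 PGCLC, 43.4 to 68.2 (median 53.3) in retina and 79.2 to 125 (median 82.8) in the B lineage. Cyfip2, a subunit of the WAVE actin regulator, had 0.305 to 5.96 RPM in the intestine and 43.1 to 337 elsewhere, Rdx, radixin, 1.99 to 12.7 against 73.6 to 259, and Ckap4, a membrane protein of the endoplasmic reticulum, 1.79 to 5.77 against 34.3 to 406. Also within the 12 were the RNA-binding Qk (1.16 to 5.83 against 33.5 to 136 RPM), the chromatin organiser Satb1 (0 to 2.31 against 12.2 to 163), the lipid transfer protein Osbpl8 (1.54 to 3.05 against 14.6 to 59.3), the sialyltransferase St6galnac4 (0 to 2.02 against 9.96 to 68.5), Hdgfrp3 (0 to 1.15 against 9.27 to 120.5), Ogfrl1 (0 to 2.04 against 10.2 to 52.4) and Armcx2 (0.448 to 2.16 against 10.4 to 100.2).

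The 13 genes absent only in the intestine (0.0517% of those examined) had, except for Zcchc18, under 5 RPM in at least 1 other library, so that the gap rests on few reads there. Zcchc18, a zinc finger gene, was the clearest, with 0.769 and 0 RPM at E16.5, 0.448 and 0.337 at P3 and 0.610 and 0.331 at P14 in the intestine and 12.8 and 15.9 RPM in d2 PGCLC, 43.8 to 77.6 (median 57.0) in retina and 42.7 to 207 (median 175) in the B lineage. S1pr3, a receptor for sphingosine 1-phosphate, was the only one listed at 0 in all 6 intestinal libraries, with 1.17 to 79.2 RPM elsewhere. At 3 reads per library, a value of 0 allows up to 0.497 to 1.35 RPM, depending on the intestinal library.

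The other 11 divided by where they were high. Aff3 (up to 94.2 RPM), the LIM adaptor Lmo2 (up to 276) and the polysialyltransferase St8sia4 (up to 93.0) were highest in the B lineage. Lca5, which encodes a ciliary protein of photoreceptors, reached 141 RPM in retina against at most 0.673 in the intestine. Zc3h12c (up to 221 RPM), the phosphatase Ppm1e (61.6), the endocytic protein Ehd3 (43.1), Ankrd13d (10.1) and Zeb2 (111) were highest in retina, the flippase Atp8b2 (22.5) in PB and the G protein subunit Gnb4 (17.4) in d2 PGCLC. The lowest other value was 1.01 RPM for Aff3, 1.01 for St8sia4, 1.13 for Ppm1e, 1.17 for S1pr3 and 1.13 for Ankrd13d, close to the limit of 1 RPM. Gnb4 overlaps Mfn1 in the annotation and Ppm1e overlaps Trim37, and the sources used here do not give whether the authors' counting used strand.

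**Figure D4:**
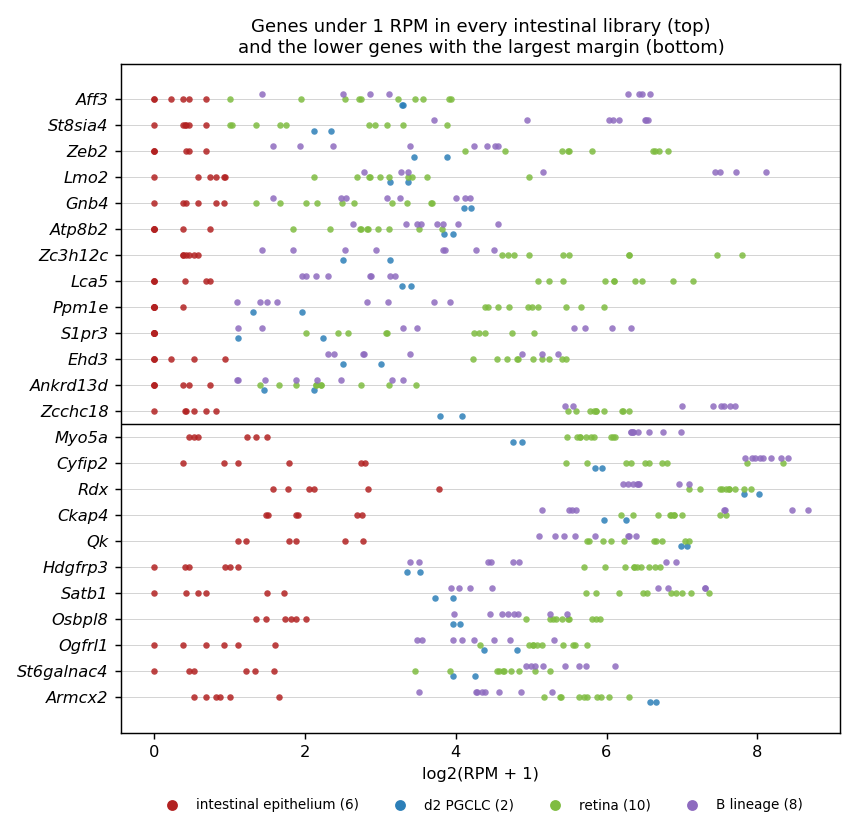
Each point is a library, placed by log2(RPM + 1), for the 13 genes absent only in the intestine (above the line) and the further lower genes with the largest margin (below it). No red intestinal point reaches the points of another lineage, and the gap is widest for Myo5a and Zcchc18.

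Of 27 genes in a list of vimentin, factors of epithelial-mesenchymal transition (EMT) and cytoskeleton of non-epithelial cells, 4 were lower in every intestinal library (Vim, Zeb2, Mllt11 and Basp1) and limma called 5 lower (18.5%, against 1.41% of all genes) and none higher, with a median log2 difference of -1.84. Vim, vimentin, had 16.0 and 17.8 RPM at E16.5, 16.8 and 19.5 at P3 and 24.3 and 31.3 at P14, against 631 and 661 RPM in d2 PGCLC, 57.9 to 494 (median 211) in retina and 111 to 363 (median 227) in the B lineage. Basp1, a membrane protein of growing neurites, had 1.22 to 4.48 RPM in the intestine and 12.7 to 281 elsewhere. Stmn1 (258 to 889 RPM in the intestine, 169.8 to 4512 elsewhere), Marcks (96.0 to 158, 17.8 to 1257) and Twist1, which was listed at 0 in all intestinal libraries and had 9.32 and 5.56 RPM in d2 PGCLC, were not called. In the annotation Mllt11 overlaps Cdc42se1.

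Zeb2, a repressor of epithelial genes such as Cdh1, is a textbook target of the miR-200 family. It had 0.385 and 0.618 RPM at E16.5, 0 and 0.337 at P3 and 0 and 0 at P14 in the intestine, against 9.90 and 13.7 RPM in d2 PGCLC, 16.4 to 111 (median 49.7) in retina and 1.98 to 22.6 (median 13.7) in the B lineage. Its relative Zeb1 was not separated, with at most 1.22 RPM in the intestine and 1.17 and 1.85 RPM in d2 PGCLC, against 32.5 to 116 RPM in retina and 14.5 to 44.5 in the B lineage. Of 635 microRNA gene lines, 156 had a value above 0 in any library, so most could not meet the rule. Among the 635, 3 were higher in every intestinal library (0.472%, below the 5.03% over all genes), and one of these was Mir429, a miR-200 family gene. By RefSeq type, 3 of 161 microRNA genes with any value were higher (1.86%), against 6.67% of protein-coding genes. The line of Mir429 had 3.85 and 8.03 RPM at E16.5, 8.52 and 17.8 at P3 and 9.76 and 11.4 at P14, 1.17 and 0.741 RPM in d2 PGCLC and at most 0.260 RPM elsewhere, while the lines of Mir200a, Mir200b, Mir200c and Mir141 were at 0 or had a single value of 0.337 RPM. Such lines count reads of 3' RNA-seq at the gene and not the mature microRNA. The neighbouring gene Ttll10 had 2.78 to 8.54 RPM in the intestine and at most 0.371 elsewhere, and the other 2 lines were Mir31 (6.15 to 25.3 RPM) and Mir203 (1.54 to 5.38 RPM). The mature sequences (RefSeq, GRCm38) of Mir429 and of the 2 family members with the same seed, whose own lines are not in the set, and matches to that seed in a Zeb2 transcript from GENCODE, are shown because Mir429 is in the higher and Zeb2 in the lower set. Capitals mark the seed (bases 2 to 8) and its complement.
mmu-miR-429-3p, chr4:156053916-156053937: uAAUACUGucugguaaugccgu
mmu-miR-200b-3p, chr4:156055685-156055706: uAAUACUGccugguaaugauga
mmu-miR-200c-3p, chr6:124718324-124718346: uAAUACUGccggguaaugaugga
Zeb2 after the stop codon, chr2:44988166-44988188 (minus strand): ccatacatCAGTATTttattatt
Zeb2 after the stop codon, chr2:44988101-44988123 (minus strand): cagtgcatCAGTATTacgattcc
Zeb2 after the stop codon, chr2:44987739-44987761 (minus strand): acccgtgtCAGTATTagacgact
The transcript of 9124 bases held 6 matches to the complement of the seed, 5 of them after the stop codon. How many matches other transcripts hold was not examined. Whether Mir429 has any part in the level of Zeb2 was not tested. Mir429 lies on chromosome 4, next to Mir200a and Mir200b.

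Families in which one member was higher or lower in the intestine were compared across libraries, chosen after the values were seen. Of the linkers between actin and membrane, Ezr was at 197 to 447 RPM in the intestine, whereas Rdx (1.99 to 12.7) and Msn, moesin (0.448 to 4.38), were low. Msn was called lower by limma without being separated, since its lowest retinal value was 3.38 RPM. Of the class V myosins, Myo5b, the motor of apical recycling in enterocytes, had 245 and 241 RPM at E16.5, 189 and 198 at P3 and 134 and 159.9 at P14 and at most 9.08 RPM elsewhere, the reverse of Myo5a, while Myo5c was in neither set (2.31 to 13.7 RPM). Cyfip1 was at 66.4 to 121 RPM in the intestine and reached 108 elsewhere, whereas Cyfip2 was low. Cdh1 and Cdh17 were higher and Cdh2, N-cadherin, was at 0.166 to 3.03 RPM in the intestine and 0 to 0.937 RPM in the B lineage, against 78.9 to 209 in retina. Hk1, the hexokinase of most cells, was lower in every intestinal library (0.385 and 0.309 RPM at E16.5, 2.24 and 1.35 at P3 and 1.53 and 1.16 at P14, against 5.24 to 392 elsewhere), and Hk2 (2.02 to 5.81 RPM) was in neither set. Of the beta chains of the sodium pump, Atp1b1 was higher (282 to 461 RPM, at most 30.7 elsewhere), and Atp1b2, with up to 2097 RPM in retina, had at most 4.62 RPM in the intestine. Lgals2 and Lgals4 were higher while Lgals1 was at most 10.0 RPM.

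**Figure D5:**
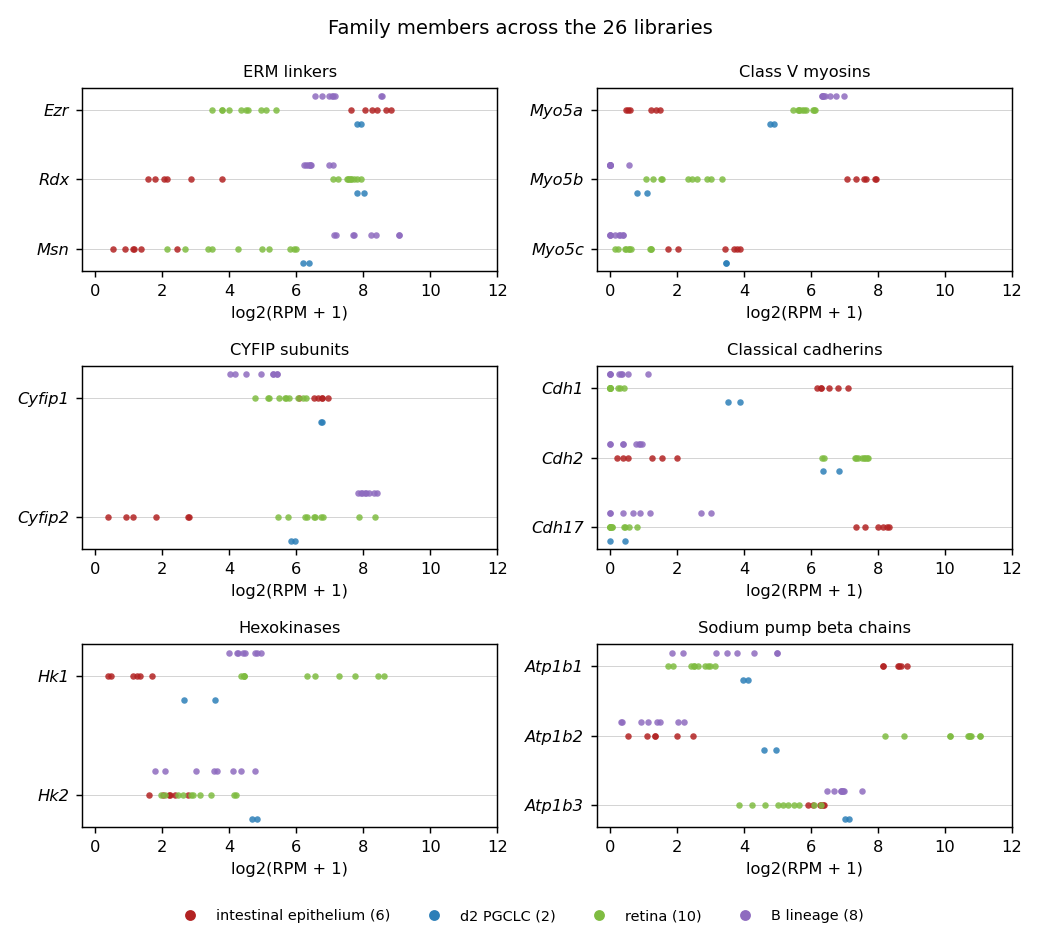
Panels show members of 6 gene families, each point a library placed by log2(RPM + 1) and coloured by lineage. Red intestinal points are far right for Myo5b, Cdh1, Cdh17 and Atp1b1 and far left for Rdx, Msn, Myo5a, Cyfip2 and Hk1.

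Markers of other cell types were examined in the same libraries. Of 14 genes of T, NK and myeloid cells, none was separated, 8 were under 1 RPM in all 6 intestinal libraries, and their summed level was 20.6 to 55.4 RPM there. Ptprc, the common leukocyte antigen, had at most 1.82 RPM in the intestine, while the myeloid receptor Csf1r had 3.64 to 50.8. Endothelial genes summed to 0.897 to 10.8 RPM and genes of enteric neurons and glia to 10.5 to 40.6 RPM, including Ret (5.49 to 24.7 RPM). Uchl1, a neuronal ubiquitin hydrolase of that list, was lower in every intestinal library (1.54 to 4.04 RPM, against 5.05 to 209 elsewhere). Mesenchymal genes summed to 10.5 to 56.9 RPM in the intestine and 42.0 to 46.2 RPM in d2 PGCLC, and 1 of these 10 genes, Col3a1, was higher in every intestinal library (3.85 and 8.34 RPM at E16.5, 4.04 and 2.36 at P3 and 5.19 and 2.32 at P14). Pancreatic acinar genes summed to 4.23 to 42.9 RPM, with Cela1 (4.23 to 13.5 RPM) higher in every intestinal library and 6 of 10 under 1 RPM in all 6. Erythroid genes varied most, from 1.90 to 248 RPM in sum, with Hba-a1 at 0.497 to 91.5 RPM. Col3a1 and Cela1 were both called by limma but not with a pseudocount of 5, and the part of such cells in their values was not tested.

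Low values of the strongest genes outside the intestine were not spread evenly. The sum of the 24 genes with the largest margin was 2.62 and 2.97 RPM in d2 PGCLC, 12.2 to 32.6 RPM in retina and 5.20 to 49.1 RPM in the B lineage, with the highest value in B_cell replicate 2. In that library 20 of the 24 were higher than in B_cell replicate 1, at a median of 0.0969% of their mean intestinal level. Where these reads come from was not tested. Without B_cell replicate 2, a choice made after seeing the data, 1283 genes were higher in every intestinal library, a number that can only grow when a library is left out, and limma called 981 higher.

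At the edge of the rule lay Mrps22, a mitochondrial ribosomal protein, with a lowest intestinal value of 72.3 RPM against a highest other value of 72.2, and Gm766, with 0.673 to 118 RPM in the intestine and at most 0.673 elsewhere. Just outside were Atp6v0a4, listed at 0 in 4 intestinal libraries, and Mir3078, listed at 0 in all 6. Both had traces far below 1 read elsewhere. Membership of Mrps22 and Gm766 is therefore decided by less than the spread between replicates.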

How the data were processed

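RNA of 26 sorted cell samples, 13 groups of 2, was measured by 3' RNA-seq from 1 ng of input. The authors deposited 1 table of signal as RPM, reads scaled to the size of each library, per gene. Per the submitters' processing notes, cutadapt 1.11, TopHat 1.4.1, Bowtie 1.0.1 and Cufflinks 2.2.0 were used with the mm10 build. The treatment of strand and of reads that map to several genes was not given in the sources used. Values were nearly whole multiples of 1 read for 79.5 to 89.4% of low values per library (tolerance 0.02 reads, up to 300 reads), too few to recover counts, so no count test was run. Of 26310 lines, 92 spike-ins and 1072 gene lines (4.09% of gene lines), whose values are displaced against the header, were left out.

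The values were analysed as log2(RPM + 1) in Python 3.11.15 and with limma 3.58.1 (trend option) in R 4.3.3, as 1 fit of 13 group means and 9 contrasts. Simulated data were made from these libraries, with the same mean in all 13 groups for every gene not changed. There 140 of 169 changed genes were recovered and no unchanged gene was called. Equal group means made the latter nearly certain in advance, so it says nothing about wrong calls where lineages differ. The rate of wrong calls among measured genes, many of which differ between the 13 groups, was not tested. The members and the gene lists were chosen with earlier results of these data known. Named were the 24 higher genes with the largest margin, the 13 absent genes, the 12 lower genes with the largest margin, 4 genes at the edge of the rule, up to 5 genes of each list with the largest margin and up to 2 with the smallest, and Epcam, Lgals4 and Prdm1. Some genes that this rule names are not reported here. Names beyond these (gene families, neighbours, even genes, genes shared with d2 PGCLC and further examples) were chosen after their values were seen. Alternatives changed the margin, the pseudocount, the filter on low values, the scaling, the contrasts, the limit of absence, the replicate block and the libraries. Coordinates, promoters and microRNAs are from RefSeq (GRCm38.p6), and 24062 lines matched it by Entrez ID. Intervals are not given, since counts were not recovered, and reads without molecular identifiers are not independent molecules.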

Additional observations from a re-analysis of the deposited data

How the results depend on the processing

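The count of 1264 genes higher in every intestinal library was 632 with a margin of at least 1 and 1953 without the retinal libraries. It stayed within 1.5 times under the other alternatives run. Leaving out the B-lineage libraries gave 1666 and leaving out the d2 PGCLC libraries 1475. The filter on low values gave 1195, quantile normalization 1252, median-of-ratios scaling 1396 and setting the displaced lines back under the header 1288. Of the 1264 genes, 1140 were kept with quantile normalization and 1205 with median-of-ratios scaling. The 211 lower genes became 39 with the margin of at least 1, 435 with quantile normalization, 400 without the retinal libraries and 2203 without the B-lineage libraries. Median-of-ratios scaling gave 274 and leaving out the d2 PGCLC libraries 305. Of the 211 genes, 173 were kept with quantile normalization and 164 with median-of-ratios scaling. The 13 absent genes became 1 when all intestinal values had to be listed at 0, 34 at a limit of 2 RPM, and 1 when the others had to reach 5 RPM. Of the limma counts, 984 higher kept within 1.5 times (712 with 30 contrasts, 753 with a pseudocount of 5), and 199 lower fell to 94 with a pseudocount of 5 and to 70 with 30 contrasts. Leaving out each intestinal library gave 1295 to 1330 higher, 226 to 256 lower and 14 to 18 absent genes, and 925 to 945 higher and 168 to 184 lower limma calls. The last fit assumes that a lone sample varies like the other groups. Counts of the rule itself can only grow when libraries are left out or displaced lines are set back. They can only fall with the margin or the filter on low values. The direction of these changes was thus fixed in advance.

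Same-numbered replicates did not deviate together: over 78 pairs of groups the correlation of deviations was -0.0573 to 0.235 (median 0.00761), over 0.1 in 2. With the replicate number as a block, limma called 984 higher and 197 lower, of which 982 and 197 were the same genes. Of 151 tested named genes 97 were called, and 16 of these lost the call under at least 1 alternative, among them Gnb4, Ankrd13d, S1pr3, Gm766, Ace and Cela1. Leaving out 1 intestinal library ended the call of Ankrd13d, Gm766, Ceacam1 or Cela1. With 30 contrasts the smallest log2 fold change of Ceacam1 was -1.36 and that of Dpp4 -0.16, both in the opposite direction. The cause was not tested, beyond what the settings themselves change. Values under about 1 RPM rest on a few reads, how many depending on the library, and limit the absent genes most.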
